A study of Mus musculus with 30 samples.

Results

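Immunoglobulin light chain transcripts of the mouse aorta were read from 94 array features of 55681 non-control features in all. They are the features whose description names an immunoglobulin kappa or immunoglobulin lambda sequence and none of the words lambda-like, binding or recombination. A feature is 1 probe of 60 bases. By their descriptions 89 were kappa and 5 lambda, 88 were variable segments, 5 were constant regions, and clone CBAimmB-21 was neither. Features named for a clone or an isolate keep that name, since only 1 of the 94 had a symbol in the RefSeq table. The samples were aortas of wild type (WT) mice and of B cell-deficient uMT mice, both labelled C57BL/6. In each genotype there were 3 samples without operation (pre), 3 taken at day 7 and 3 at day 42 after saline was placed around the aorta (sham), and 3 at each of those days after 0.5 M CaCl2 was placed there instead, which produces an abdominal aortic aneurysm. The labels call the tissue of all 30 samples abdominal aortic aneurysm, pre and sham samples included. They do not say whether the samples of a group are separate animals, so the p-values measure only the spread between these samples, which may be technical.

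Each antibody pairs heavy chains with light chains of either the kappa or the lambda type, and only cells of the B lineage make them. A developing B cell joins a single light chain variable segment to a joining segment and a constant region, so nearly all kappa transcripts carry Igkc, whereas a given variable segment is carried only by cells that chose it and their descendants. Plasma cells, the antibody-secreting end stage of the lineage, hold far more light chain RNA than resting B cells do, and in uMT mice a disrupted mu heavy chain gene stops B cell development before light chains are normally made.

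The constant-region probes show which RNA the array reads as light chain whatever the variable segment. Capitals mark the last bases of the Igkc probe, TAG, a stop codon, and in the Iglc3 probes the run of 42 bases that both share.
Igkc: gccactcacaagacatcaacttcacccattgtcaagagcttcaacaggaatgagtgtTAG
Iglc2: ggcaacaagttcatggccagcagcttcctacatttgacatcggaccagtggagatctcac
Iglc3 probe 1: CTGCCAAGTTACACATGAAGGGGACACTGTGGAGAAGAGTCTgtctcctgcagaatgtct
Iglc3 probe 2: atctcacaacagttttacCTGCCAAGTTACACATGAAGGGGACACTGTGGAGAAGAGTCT
clone IMAGE:4013126: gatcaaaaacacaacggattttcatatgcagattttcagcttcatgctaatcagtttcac
In the mm9 build these lie at chr6:70676692-70676751 (plus strand), chr16:19198704-19198763, chr16:19065462-19065521, chr16:19065480-19065539 and chr6:69413673-69413732 (minus strand, all 4). The Iglc3 probes are therefore a pair of readings of almost the same stretch, not independent genes. Clone IMAGE:4013126 is described as a kappa constant sequence, but its probe lies among those of the variable segments, so the constant regions are counted with and without it.

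Variable probes read short stretches that related segments share. The probes of Igkv5-43 (chr6:69773526-69773585) and Igkv5-45 (chr6:69725919-69725978), both on the minus strand, were 94.8% identical over 58 bases, and capitals mark their longest common run of 23 bases. Igkv9-124 (chr6:67892237-67892296) and Igkv4-71 (chr6:69494430-69494489), both on the minus strand, are shown because the first appeared after CaCl2 in WT and the other was well above background in every sample, uMT included.
Igkv5-43: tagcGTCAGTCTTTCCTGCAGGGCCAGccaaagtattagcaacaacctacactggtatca
Igkv5-45: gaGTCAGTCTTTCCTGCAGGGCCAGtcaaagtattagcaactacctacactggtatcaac
Igkv9-124: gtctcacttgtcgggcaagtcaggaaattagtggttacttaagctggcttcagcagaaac
Igkv4-71: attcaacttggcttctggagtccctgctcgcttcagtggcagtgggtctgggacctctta
The next probes reach the end of the variable segment, where the codons before the hypervariable loop read TATTNCTGN, marked in capitals.
Iglv1: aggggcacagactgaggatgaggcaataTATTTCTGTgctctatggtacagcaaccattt
Igkv1-122: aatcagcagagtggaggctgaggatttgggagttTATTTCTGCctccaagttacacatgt
partial IGKV mRNA: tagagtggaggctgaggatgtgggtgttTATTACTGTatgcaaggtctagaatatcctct
Iglv1 lies at chr16:19085111-19085170 on the minus strand, Igkv1-122 at chr6:67967417-67967476 on the plus strand, and the feature described as a partial IGKV mRNA at chr6:43031517-43031576 on the minus strand. TATTNCTGN was present on the probe strand in 37 of the 88 variable features (42.0%) and on the other strand in 2 of them (2.27%). Among all 55681 probes it was present on these strands in 428 (0.769%) and 371 (0.666%). Of the features with it 16 of 37 rose in WT aorta at day 42 and of those without it 14 of 51 did, by the test given below, where 2.41% of all features rose. Without 1 dim array, described below, these counts were 19 of 37 and 29 of 51, so the order of the shares turned. The median log2 changes were 1.59 and 1.91 with that array and 3.22 and 2.89 without it.

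Levels are log2 intensities relative to the 75th percentile of the same array, so 0 is that percentile, and they are not set against each other between probes. A feature is detected where the scanner software marks it well above background. Between 36.6% and 61.8% of all features were detected on an array, with 6 arrays under 50%. The dimmest, replicate 2 of WT sham day 42, was alone on its slide and scan day and correlated with the others of its group at 0.81, and the lowest signal that counted as detected there was -1.43, against -4.97 to -2.49 on the other arrays. Clone IMAGE:4013126, a light chain feature detected on no array, read -3.66 there and -5.99 and -6.41 on the others of its group, so counts that the dim array moves are given with and without it. The 8 smooth muscle genes checked, Acta2 and Myh11 among them, were detected on all arrays, with array means of 5.79 to 7.03 in pre and sham samples, 3.86 to 5.10 in WT and 4.01 to 5.55 in uMT CaCl2 samples at day 42. At day 7 the CaCl2 samples had 3.28 to 4.42 in WT but 3.13, 5.65 and 6.21 in uMT. What part this had in the day 7 comparisons was not tested. A change is the mean of 1 group minus that of another, n = 3 each, given ± its standard error from limma fitted to all 30 arrays, and a feature is said to rise or fall where the Benjamini-Hochberg adjusted p over 55657 features was under 0.05.

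Light chain transcripts rose in WT aorta 42 days after CaCl2, and no light chain feature passed the test in uMT aorta. In WT, CaCl2 against sham, 34 of the 94 features rose and none fell, against 2.41% of all features that rose. These were 30 of 88 variable features (34.1%) and 4 of 5 constant ones, that is Igkc, Iglc2 and both Iglc3 probes, leaving out only clone IMAGE:4013126. The median change was 1.94 over the 94 features and -0.46 over all features. Without the dim sham array the count was 53 (48 variable and 4 constant), with medians of 2.99 and -0.08. Without replicate 3 of WT CaCl2 day 42, which had the highest of the 3 levels for 83 of 94 features, 22 rose, 18 of them variable and 4 constant. In a fit of only the 6 arrays compared, 0 of the 94 features and 0 of 55657 features overall passed, and 35 of the 94 had an unadjusted p under 0.05 in limma. On the 1 slide that holds both groups, with 1 sham array and no test, the median change was 3.26, and that of Igkc 9.95.

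**Figure D1:**
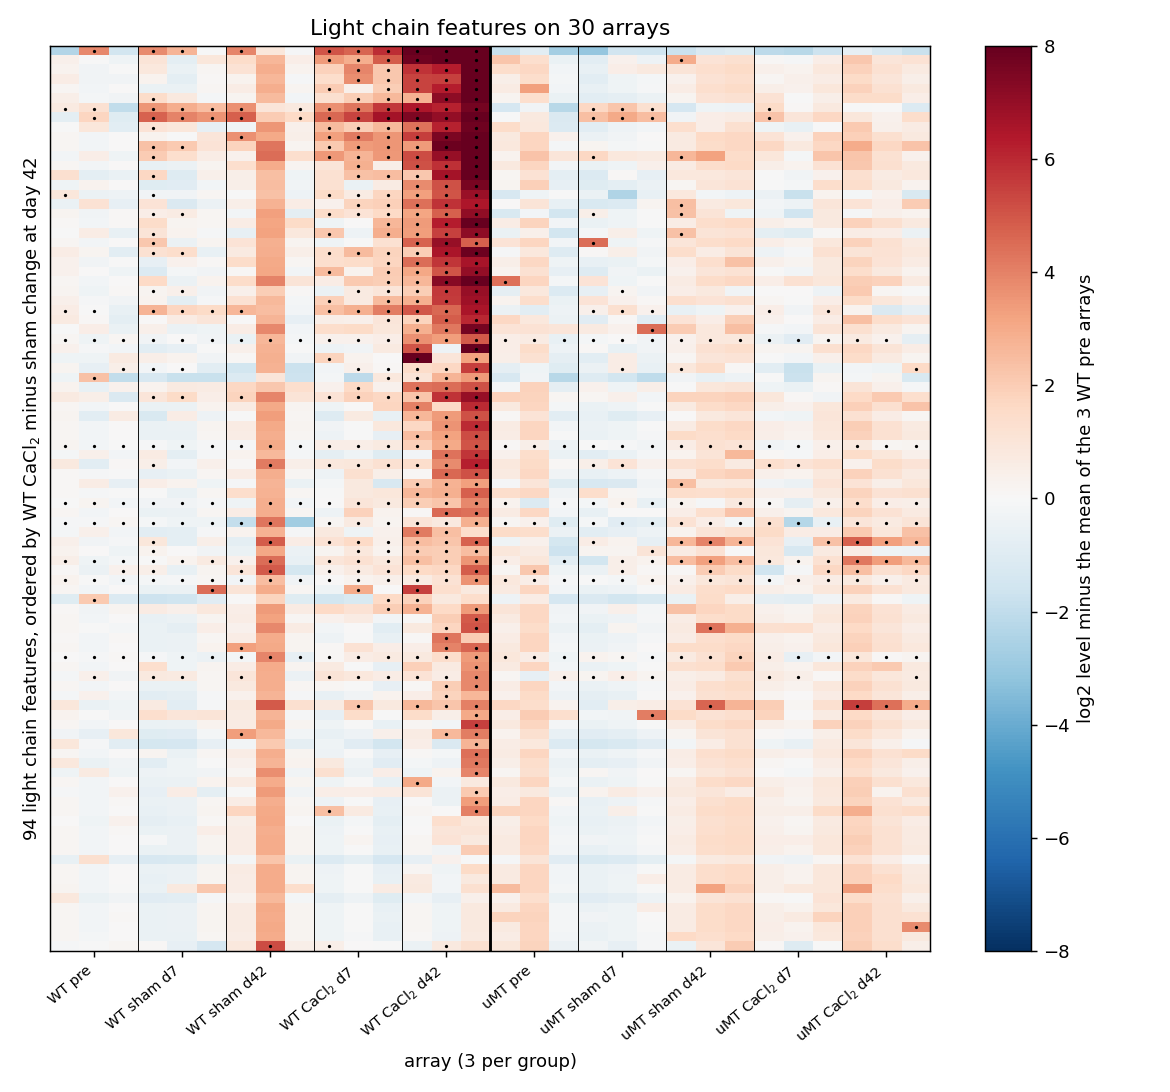
Level of each of the 94 light chain features (rows, ordered by the WT change at day 42) on each of 30 arrays (columns, 3 per group), as the log2 difference from the mean of the 3 WT pre arrays. Black dots mark features well above background, and the WT CaCl2 day 42 arrays hold 59, 63 and 74 such features. The pale red column in WT sham day 42 is the dim array.

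Igkc, the kappa constant region, was at 4.76, 5.82 and 7.02 on the 3 WT CaCl2 day 42 arrays and at -0.07, -3.08 and -4.08 on the sham arrays of that day, where only the first was detected. The CaCl2 arrays were all above the sham arrays, as for 5.94% of all features at that day. Its change was 8.27 ± 1.15 (limma adjusted p = 3.4e-04), or 7.94 ± 1.32 without the dim array (adjusted p = 0.00174). At day 7 the CaCl2 arrays gave 1.03, 0.67 and 1.94 and the sham arrays -0.21, -1.31 and -4.00, also without overlap, but the change of 3.05 ± 1.15 did not pass (limma adjusted p = 0.204). Over all features 18.8% had every CaCl2 array above every sham array at day 7. Unoperated WT aorta varied most, with -6.36, -0.14 and -5.49, so that 1 of the 3 pre arrays was level with the brightest sham arrays. In uMT aorta Igkc was detected on none of 15 arrays, with values from -7.08 to -4.67.

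The lambda constant regions also rose at day 42. Iglc3 probe 1 read 2.07, 1.75 and 3.23 after CaCl2 and -0.72, -3.43 and -3.63 after sham. Its change of 4.94 ± 0.76 passed (limma adjusted p = 8.3e-04), as did that of the overlapping probe 2, 4.90 ± 0.75 (limma adjusted p = 7.8e-04). Iglc2, another lambda constant region, read 0.94, 0.59 and 2.50 against -1.36, -1.58 and -4.23 and changed by 3.74 ± 0.63 (limma adjusted p = 0.00182). For Iglc2 and Iglc3 the CaCl2 arrays lay above all sham arrays. In uMT aorta the corresponding changes were 0.30, 0.59 and -0.34 with standard errors of 0.76, 0.75 and 0.63, and none passed. Clone IMAGE:4013126 was detected on no array of either genotype, and its change in WT was -0.61 ± 0.59 (limma adjusted p = 0.463).

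**Figure D2:**
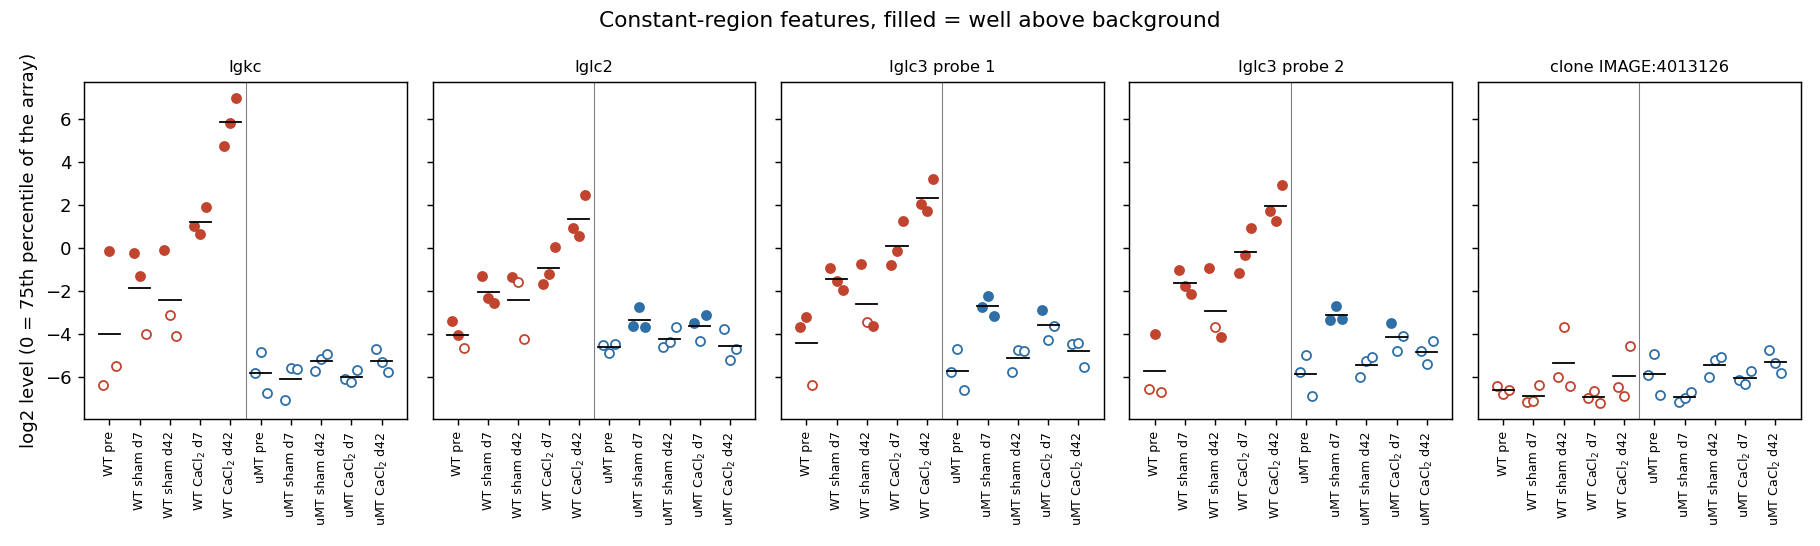
Level of the 5 features described as constant regions on every array (log2, 0 is the 75th percentile of the array), by group, with a line at the mean of 3 arrays. Filled points are well above background. Igkc reaches 4.76 to 7.02 in WT CaCl2 day 42 and has no filled point in uMT, whereas Iglc2 and both Iglc3 probes have 3 filled points in uMT sham day 7.

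The lambda constant probes, unlike Igkc, were detected in some uMT samples. All 3 uMT sham day 7 arrays had Iglc3 probe 1 well above background, at -2.75, -2.21 and -3.14, while the pre arrays, with -5.76, -4.70 and -6.62, did not. Iglc2 was at -3.60, -2.72 and -3.66 on the same sham arrays and at -4.50, -4.87 and -4.46 before operation. After CaCl2 at day 7 replicate 1 had all 3 of these probes detected, replicate 3 had Iglc2 alone, and at day 42 no uMT array had any. The sham day 7 arrays thus lay above the pre arrays for both genes, a difference that was not tested in uMT. The lowest signal counted as detected was -4.88 to -4.39 on the uMT sham day 7 arrays but -3.55 to -2.49 on the uMT CaCl2 day 42 arrays, so a level like that of sham day 7 could be missed at day 42. In WT, Iglc3 probe 2 went from -6.53, -3.99 and -6.68 before operation to -1.01, -1.74 and -2.12 at sham day 7, a change of 4.11 ± 0.75 (limma adjusted p = 0.00468). It was the 1 light chain feature of 94 to rise there, against 0.866% of all features, and without replicate 3 of WT pre none did. Probe 1 changed by 2.96 ± 0.76 (limma adjusted p = 0.0685) and Iglc2 by 1.98 ± 0.63 (adjusted p = 0.25).

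Among variable segments the largest WT change was that of Iglv1, a lambda segment. It was detected on all 6 WT CaCl2 arrays, at -2.68, -3.18 and -1.19 on day 7 and at 1.69, 3.10 and 3.99 on day 42, and on no WT pre or sham array. Day 42 exceeded day 7 on every array, and all CaCl2 arrays exceeded all sham arrays of their day. It was at least 65.2-fold higher after CaCl2 than after sham at day 42 (log2 change 7.46 ± 0.72, limma adjusted p = 6.2e-06), the bound being set by the dimmest signal the sham arrays could resolve. At day 7 it was at least 4.84-fold higher (3.33 ± 0.72, limma adjusted p = 0.0173). In uMT aorta it was detected on 1 of 15 arrays, sham day 42 replicate 1, at -3.08.

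The kappa segments that rose most were chosen among features detected on all 3 WT CaCl2 day 42 arrays, so their detection there is no result. They were not detected on any sham array of that day. Igkv5-43 read -0.73, -0.28 and 2.68 and was at least 12.6-fold higher than in sham (limma adjusted p = 1.7e-04). Igkv5-45, the near-identical probe printed above, read -0.72, -0.68 and 2.26 and was at least 10.5-fold higher (limma adjusted p = 1.7e-04). With 94.8% of their overlap shared, the array cannot say whether RNA of 1 or of both segments was present. Igkv9-124 read -1.12, -0.25 and 1.90 and was at least 9.71-fold higher (limma adjusted p = 3.2e-04). Igkv1-122 varied more, with -3.26, 1.14 and 2.75, and was at least 9.92-fold higher (limma adjusted p = 0.00196), and Igkv4-78, with -1.10, 0.68 and 2.32, at least 13.3-fold (limma adjusted p = 0.0018). On these 5 features replicate 3 was the brightest of its group each time. None of the 5 was detected on a uMT array.

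At the other end were segments that were detected on all 3 WT CaCl2 day 42 arrays and did not pass against sham. Igkv8-16 read -3.76, -4.13 and -2.27 after CaCl2 and -5.55, -1.45 and -5.04 after sham, where the middle value, not detected, is from the dim array, so the groups overlapped. Its change was 0.63 ± 0.92 (limma adjusted p = 0.642). In uMT it was detected on all 3 CaCl2 day 42 arrays, at -0.79, -1.94 and -3.35, and on 1 sham array of that day, with a change of 1.45 ± 0.92 (limma adjusted p = 0.718). Igkv16-104 (0.74 ± 0.65, limma adjusted p = 0.425) and Igkv4-58 (0.84 ± 0.75, limma adjusted p = 0.434) did not pass either, but without the dim array Igkv4-58 did, with 2.28 ± 0.52 (limma adjusted p = 0.0174).

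Between the 3 arrays of WT CaCl2 day 42 the variable segments differed more than at day 7. Of the features detected on all 3 arrays, the median SD was 0.355 over 19 variable features at day 7 and 1.68 over 46 at day 42, while the 4 constant features had 0.962 and 0.934. Igkv5-48 was at -1.42 and 1.97 on replicates 1 and 3 and not detected, at -6.86, on replicate 2. Igkv19-93 was brightest on replicate 1, at 2.01, and read -5.01, not detected, and -2.73 on the others. These 2 were picked out after their values were seen. Replicate 3 also differed from its group in other respects: 50.6% of all features were detected on it, against 58.0% and 61.6% on the others. The part of this in the spread was not tested.

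Counts of detected features need no fold change. WT CaCl2 day 42 arrays had 59, 63 and 74 of the 94 features well above background, WT CaCl2 day 7 arrays 31, 36 and 43, WT sham day 7 arrays 29, 18 and 11, WT sham day 42 arrays 16, 11 and 7, and WT pre arrays 10, 14 and 9. All uMT arrays had between 6 and 15. The WT CaCl2 groups thus lay above every other array, whereas over all features those arrays ranged from 50.6% to 61.8% detected. On all 3 WT CaCl2 day 42 arrays 51 features were detected, 46 of them variable, and 24 features were detected in that group and in no other. On no array were 12 features detected, and on no uMT array 64. Of the 13 features detected on exactly 1 of 30 arrays, 9 were detected on replicate 3 of WT CaCl2 day 42.

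**Figure D3:**
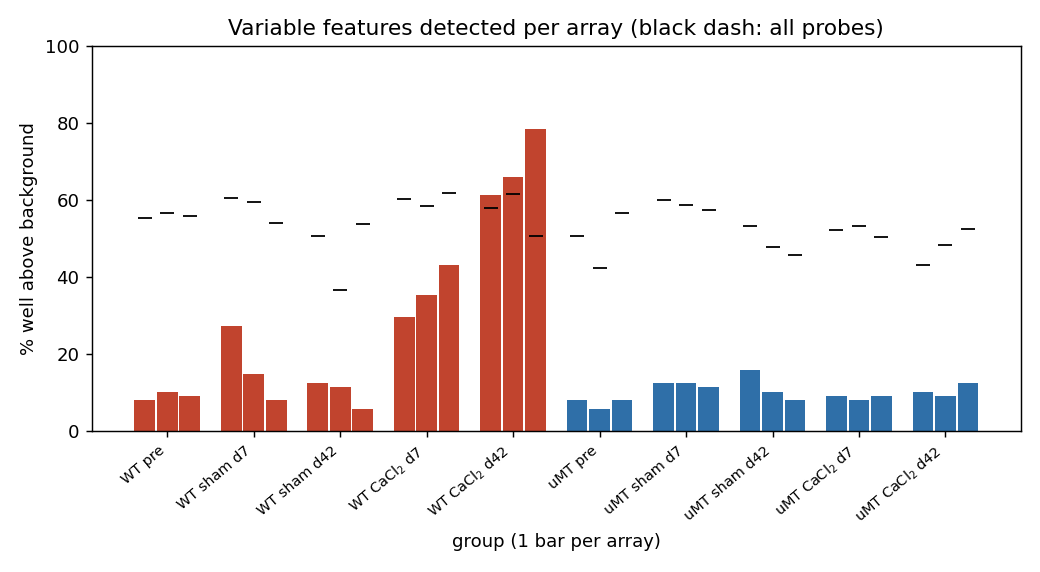
Share of the 88 variable features well above background on each array (bars, 3 per group, red WT and blue uMT), with the share of all features on that array as a black dash. The bars of WT CaCl2 day 42 stand at 54, 58 and 69 features, while the dashes do not follow them.

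A few variable features were detected whatever the genotype. Igkv4-71 was well above background on all 30 arrays, between -1.85 and -0.22 in uMT. In WT it read 0.47, 1.59 and 3.63 after CaCl2 at day 42 and -1.54, 1.62 and -1.53 after sham, overlapping only through the dim array, and rose by 2.38 ± 0.63 (limma adjusted p = 0.0319). Igkv4-58 and Igkv4-50 were likewise detected on all 30 arrays. Igkv3-4 probe 2 was detected on 14 WT and 13 uMT arrays. After CaCl2 at day 42 it read 0.81, -0.05 and -0.83 in uMT and -0.97, -1.44 and 0.14 in WT, which overlapped. Clone CBAimmB-21, the feature with no segment class, was detected on all 15 uMT and 14 WT arrays, and its WT change at day 42 was 1.69 ± 1.09 (limma adjusted p = 0.278), or 3.91 ± 0.68 without the dim array, which read 2.67 against -3.56 and -4.42 (limma adjusted p = 0.00266). The 4 features detected on all uMT arrays had a median GC content of 50.9%, and the 64 detected on none 45%. Over the 88 variable features, mean uMT level and GC content correlated at r = 0.512 (Spearman 0.376), a description of probes that share arrays. What part GC content had in these levels was not tested.

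In uMT aorta CaCl2 against sham gave 0 of 94 features in limma at day 42, where 1.66% of all features rose, and 0 at an unadjusted p under 0.05. The median change was 0.05, but -0.01 after quantile normalization and -0.38 with slide as a random block. At day 7 it gave 0 of 94, where 0.0521% of all features rose, and 2 at an unadjusted p under 0.05. The difference between the genotypes in this response passed at day 42 for 2 features, both lower in uMT, against 0.0234% of all features. Iglv1 changed by -0.35 ± 0.72 in uMT and 7.46 ± 0.72 in WT, a difference of -7.81 ± 1.01 (limma adjusted p = 0.00278). Igkv5-43 changed by -0.07 ± 0.73 and 5.64 ± 0.73, a difference of -5.71 ± 1.03 (limma adjusted p = 0.0437). Igkc differed by -8.25 ± 1.63 and did not pass (limma adjusted p = 0.0889). Leaving out the dim array, or replicate 1 of WT CaCl2 day 42, raised the count to 18, leaving out replicate 2 of WT CaCl2 day 42 gave 3, and leaving out any of the other 9 arrays gave 1. At day 7 the difference passed for 0 features in limma, against 0 of all features called lower, with 6 at an unadjusted p under 0.05.

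**Figure D4:**
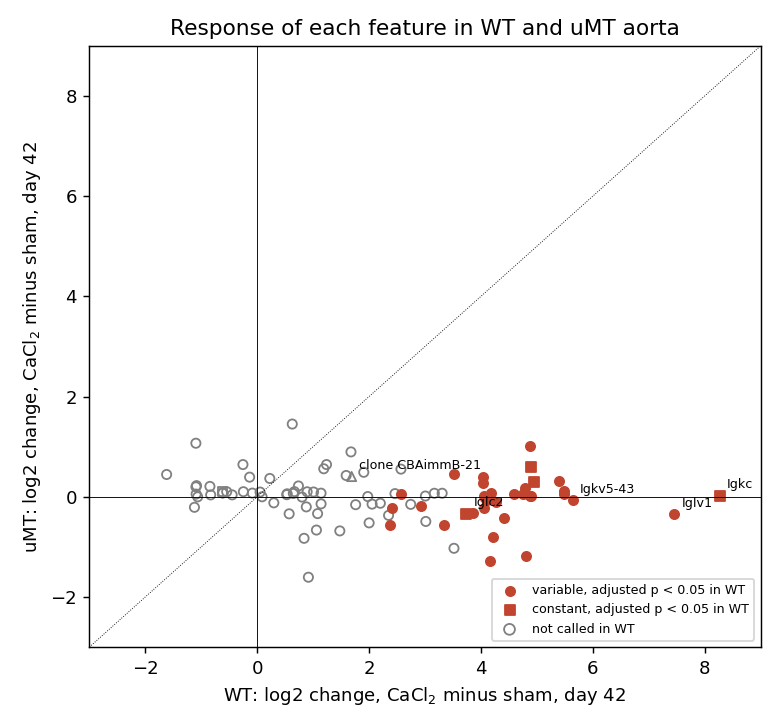
Change of each light chain feature after CaCl2 against sham at day 42 (log2), WT on the horizontal and uMT on the vertical axis. Red symbols are the 34 features that rose in WT (30 variable, 4 constant) and open symbols the other 60. The WT values run from -1.62 to 8.27 and the uMT values from -1.61 to 1.45, and the dotted line marks equal change.

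WT and uMT aorta were set against each other directly before operation and after CaCl2. At day 42 after CaCl2 30 of 94 features were lower in uMT, against 0.248% of all features, 26 variable and 4 constant, and none was higher. All 30 were among the 34 that rose in WT at that day, and both comparisons use the same WT CaCl2 arrays. Igkc was at -4.67, -5.29 and -5.76 in uMT, not detected, and was at least 479-fold lower than in WT (limma adjusted p = 1.4e-05). Iglc3 probe 1, at -4.44, -4.40 and -5.53, was at least 41.9-fold lower and Iglc2, at -3.76, -5.19 and -4.69, at least 20.9-fold lower (limma adjusted p = 1.6e-05 for each). Iglv1 was at least 62.5-fold lower (limma adjusted p = 3.8e-06). Without replicate 3 of WT CaCl2 day 42 the count was 16. With the dim array, which neither group holds, left out of the fit it was 46 lower and 2 higher, Igkv12-98 and Igkv1-99, detected on 0 and 1 of the 6 arrays. In that fit 2392 of 55657 features were lower and 2770 higher. The WT and uMT CaCl2 arrays lay on different slides, so slide and genotype cannot be told apart here. With slide as a random block 0 features of the 94, and 0 of 55657, passed in limma, with 30 of the 94 at an unadjusted p under 0.05. The slide correlation in fits with this block was 0.757, and -0.0916 without the dim array, which is alone on its slide.

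Before operation no light chain feature passed the test between genotypes, with 0 of 94 lower in uMT against 0.00359% of all features and 0 at an unadjusted p under 0.05 in limma. Igkc, Iglc2 and both Iglc3 probes were all lower in uMT, with a median difference of -0.93. Each of these 4 was detected on some WT pre arrays and on no uMT pre array. Over the 88 variable features the median difference was 0.69, against 0.31 over all features. After CaCl2 at day 7 the 2 that were lower in uMT, against 0.0305% of all features, were constant ones. Igkc was at least 32.1-fold lower in uMT, with -6.08, -6.22 and -5.65 (limma adjusted p = 0.0131), and Iglc3 probe 2, with -3.47, -4.78 and -4.07, differed by -3.93 ± 0.75 (limma adjusted p = 0.0495). The WT and uMT arrays did not overlap for either, and 8.95% of all features had every uMT array below every WT array there. Without any 1 of the WT CaCl2 day 7 arrays, or replicate 2 or 3 of the uMT ones, 0 features passed, and without replicate 1 of the uMT ones or without the dim array 4 did. Averaged over the 5 conditions 11 of 94 were lower in uMT, against 0.498% of all features, and these were the 4 constant features and 7 of 88 variable ones. The difference was -5.44 ± 0.52 for Igkc, -3.18 ± 0.34 for Iglc3 probe 1, -2.97 ± 0.33 for probe 2 and -2.45 ± 0.28 for Iglc2 (limma adjusted p from 2.1e-06 to 2.5e-05). The variable features with the largest falls were Iglv1 with -2.10 ± 0.32, Igkv4-57-1 with -1.90 ± 0.35, Igkv14-111 with -1.86 ± 0.30 and Igkv4-78 with -1.68 ± 0.37. All 11 were among the 30 lower in uMT after CaCl2 at day 42, which is 1 of the 5 conditions averaged. Before operation the uMT and WT means were -5.04 and -6.06 for Iglv1 and -5.16 and -4.62 for Igkv4-57-1. They were -5.72 and -6.69 for Igkv14-111 and -5.09 and -5.47 for Igkv4-78. The average therefore does not show a difference in each condition. Without the dim array the count was 37, and without replicate 1 of WT CaCl2 day 42 it was 22. The genotypes shared only 1 slide, and with slide as a random block 0 of the 94 features passed in limma (adjusted p = 1 for Igkc, Iglc2 and both Iglc3 probes), with 7 at an unadjusted p under 0.05 and 3 of 55657 features called. That fit includes the dim array and used the slide correlation of 0.757, which was -0.0916 without that array.

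Within WT the days were compared over the CaCl2 arrays, and the difference in response to CaCl2 between the days was not tested. At day 7, CaCl2 against sham, 2 of 94 features rose, against 0.794% of all features. They were Iglv1 and Igkv14-111, a kappa segment that read -3.42, -2.51 and -3.14 after CaCl2, was not detected after sham and was at least 3.03-fold higher (3.26 ± 0.68, limma adjusted p = 0.0148). No feature rose when replicate 1 or 2 of the sham arrays or replicate 3 of the CaCl2 arrays was left out, 1 rose without replicate 2 of the CaCl2 arrays, and 4 without the dim array. All sham day 7 arrays lay on 1 slide and all CaCl2 day 7 arrays on another, so slide and treatment cannot be told apart, and with slide as a random block 0 of the 94 passed in limma, with 13 at an unadjusted p under 0.05. Between the CaCl2 arrays of the 2 days, which share a slide, all 94 changes were positive with a median of 2.47. Over all features 62.8% were positive, with a median of 0.15. The 94 include 12 features detected on no array, so a positive sign alone does not show light chain RNA. In this interval 19 of the 94 features rose, against 0.156% of all features. All 19 were variable. Igkv17-121 went from -5.14, -3.90 and -5.15 to -1.13, -1.04 and -0.44, without overlap, a change of 3.86 ± 0.50 (limma adjusted p = 6.5e-04). Igkv4-70, detected on all 6 arrays, went from -2.53, -2.49 and -2.33 to 0.80, 0.48 and 2.06, a change of 3.56 ± 0.57 (limma adjusted p = 0.00293). Both were named after their values were seen. Igkc changed by 4.65 ± 1.15 and did not pass (limma adjusted p = 0.142), although its arrays did not overlap. Over all features 10.5% had every day 42 array above every day 7 array.

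The count for this interval was 8 without replicate 1 of WT CaCl2 day 7, 10 without replicate 3 of day 42, 41 without replicate 1 of day 42 and 32 without the dim array. In a fit of only these 6 arrays 0 of the 94 and 1 of 55657 features passed, with 62 of the 94 at an unadjusted p under 0.05. In uMT the same interval gave 0 of 94 in limma, against 0.228% of all features, and 4 at an unadjusted p under 0.05. There 88 of the 94 changes were positive, with a median of 0.736, against 66.3% positive and a median of 0.345 over all features.

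The kappa families were not alike in how many features rose in WT at day 42, where 2.41% of all features rose. Of the Igkv4 family 8 of 16 rose, with a median change of 3.18, of Igkv1 5 of 10 (3.12), of Igkv9 3 of 4 (3.50), of Igkv2 2 of 5 (2.75) and of Igkv5 2 of 5 (3.31). Of Igkv3 0 of 9 rose (1.19), of Igkv6 2 of 8 (0.98), of Igkv8 2 of 7 (2.05), of Igkv12 1 of 5 (0.57) and of Igkv14 1 of 4 (0.71). For the Igkv3 features 1 had an unadjusted p under 0.05 in limma. Without the dim array Igkv3 had 4 of 9, Igkv4 13 of 16, Igkv12 2 of 5 and Igkv1 6 of 10. Igkv6 then had 3 of 8, Igkv8 3 of 7 and Igkv2 3 of 5, while Igkv5, Igkv9 and Igkv14 were unchanged. The difference between families was not tested. Features of a family share sequence. In 51 pairs of probes, among 39 of the 94 features, at least 85% of an overlap of 40 or more bases was identical, and the WT changes of such pairs differed by a median of 0.68, against 2.16 over all 4371 pairs.

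**Figure D5:**
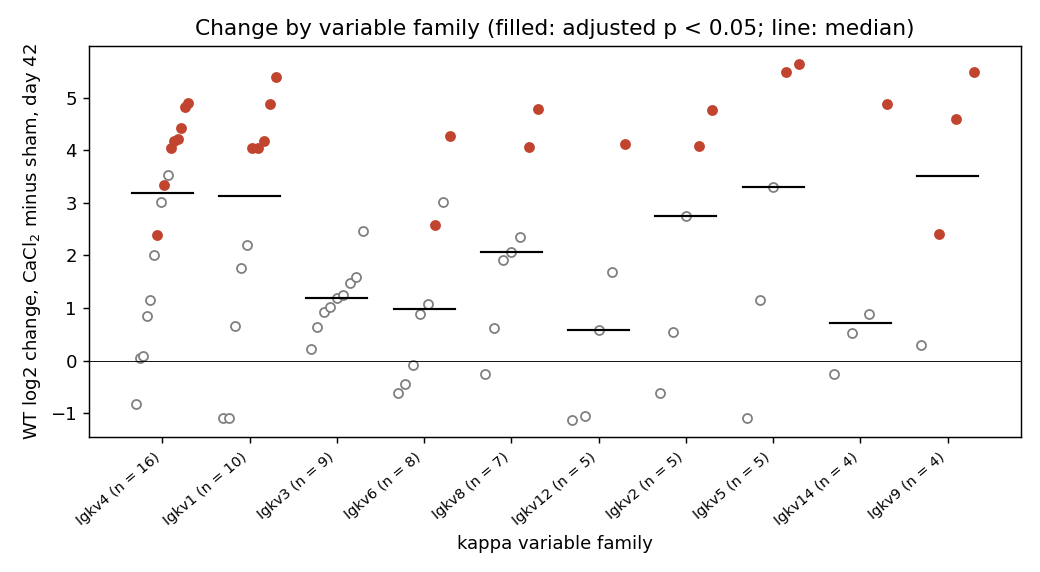
WT change after CaCl2 against sham at day 42 (log2) for each kappa variable feature, by family, with filled points for an adjusted p under 0.05 and a line at the family median. Medians run from 0.57 (Igkv12) to 3.50 (Igkv9), and each of these families except Igkv3 has at least 1 filled point.

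The kappa locus on chromosome 6 was divided by distance from Igkc, and the counts stand against 2.41% of all features that rose in WT at day 42. Among the 84 kappa variable features of the locus, 4 of the 28 nearest to Igkc rose (22.8 to 763.4 kb away, median change 1.14), 12 of the middle 28 (783.5 to 1990.4 kb, median 3.09) and 12 of the farthest 28 (2022.2 to 3170.7 kb, median 2.08). Without the dim array these counts were 11, 19 and 14, and without replicate 3 of WT CaCl2 day 42 they were 3, 9 and 5. Change and distance correlated at r = 0.14 (Spearman 0.122) across the 84 features, which share arrays, and the difference between the 3 stretches was not tested.

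Other transcripts of the B lineage were taken from fixed lists. Over all features 2.41% rose in WT and 1.66% in uMT at day 42. After CaCl2 0.248% of all features were lower in uMT than in WT, or 2392 of 55657 without the dim array. Of 15 plasma cell and antibody secretion genes 5 rose in WT at day 42, or 3 without replicate 3 of WT CaCl2 and 6 without the dim array. In uMT 3 rose, Tnfrsf13b, Slamf7 and Irf4. Between the genotypes after CaCl2, Tnfrsf13b differed by -0.48 ± 0.57 (limma adjusted p = 0.616) and Slamf7 by 0.70 ± 0.50 (limma adjusted p = 0.387), and neither passed. Jchain, which joins antibodies into polymers, changed most, by 9.19 ± 1.01 (limma adjusted p = 2.0e-05), and after CaCl2 was at least 378-fold lower in uMT than in WT (limma adjusted p = 3.8e-06). Pou2af1, a B cell coactivator of immunoglobulin promoters, rose by 3.04 ± 0.57 in WT (limma adjusted p = 0.00367) and was at least 4.91-fold lower in uMT. Of 15 B cell receptor and identity genes 4 rose in WT (2 without replicate 3 of WT CaCl2), Cd72, Blnk, Cd79b and Spib, and 4 in uMT as well, Cd72, Blnk, Spib and Btk, genes that other leukocytes also express. Without the dim array 3 of the 15 rose in WT, Cd72 and Blnk among them. Cd79b (limma adjusted p = 0.155) and Spib (limma adjusted p = 0.0621) then did not pass. In WT Cd79a (0.30 ± 0.40, limma adjusted p = 0.609) and Ms4a1 (0.95 ± 0.87, limma adjusted p = 0.439) did not pass. After CaCl2 at day 42 1 of the 15 was lower in uMT, Fcrla (limma adjusted p = 0.0493). This count was 5 without the dim array and 0 without replicate 3 of WT CaCl2 day 42. Of 9 genes of light chain assembly 0 rose in WT in limma, with 2 at an unadjusted p under 0.05, but without the dim array Dntt, which adds bases at gene segment junctions, did, by 1.496 (limma adjusted p = 0.0119). The recombinase genes Rag1 and Rag2 were detected on no array. Of 43 heavy chain features 19 rose in WT at day 42 (22 without the dim array), and in uMT 0 did in limma, with 1 at an unadjusted p under 0.05. After CaCl2 17 of them were lower in uMT, or 11 without replicate 3 of WT CaCl2 day 42. Without the dim array 21 were lower and 1 higher.

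Among the 10 genes whose levels followed the mean of the constant features most closely over the 30 arrays, of 15978 genes ranked, were Pou2af1 (r = 0.936), Fcrla (0.913), Ly6d (0.906), Faim3 (0.878), Vpreb3 (0.841), Ms4a1 (0.828), H2-Ob (0.807), Wdfy1 (0.79) and H2-DMb2 (0.77). With clone IMAGE:4013126 left out of the mean, H2-DMb2 was at rank 18 (r = 0.742) and the others named stayed within the first 10, with r from 0.795 to 0.917. These r values describe arrays that fall into groups and carry no test. Markers of other leukocytes moved in both genotypes. Over all features 2.41% rose in WT at day 42 and 1.66% in uMT. In WT 2 of 7 T cell genes and 4 of 7 macrophage genes rose, and in uMT 3 and 2 of them. Without the dim array these were 0 and 1 in WT and 4 and 5 in uMT, and without replicate 3 of WT CaCl2 day 42 they were 0 and 1 in WT. Of 6 lymph node genes Ccl19 and Glycam1 rose in WT (1 gene did without replicate 3 of WT CaCl2) and 0 in uMT in limma (1 without the dim array), with 3 higher at an unadjusted p under 0.05 there. Their array means were -1.41 to -0.87 after CaCl2 and -2.52 to -1.51 after sham in WT, and -1.93 to -1.26 after CaCl2 in uMT. Whether lymphoid tissue beside the vessel contributed to the light chain levels was not tested, and in whole aorta more B lineage cells and more RNA per cell cannot be told apart.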

How the data were processed

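Mouse aorta RNA was hybridised to 30 Agilent 8x60K arrays in a single colour, and the labels name both RNeasy and the SV Total RNA kit. Per the file headers, the deposited spot intensities were made with Agilent Feature Extraction 10.7.1.1 (the submitters' processing notes name 9.5.1.1), which subtracts background and gives dim spots a surrogate value. Flags for signal well above background come from the same deposited files, which also give mm9 coordinates. A matrix of processed intensity values deposited by the authors served as an alternative, and each of its columns followed its own array (lowest r = 0.979).

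Here intensities of the spots of a probe were averaged, 24 of 55681 probes with a flagged spot (none a light chain feature) were left out, and the log2 values were centred on each array's 75th percentile. No spot was saturated. Changes were tested with limma 3.58.1 (R 4.3.3, lmFit and eBayes) with 10 group means over 30 arrays and Benjamini-Hochberg adjustment over 55657 features, and the procedure was tested on simulated data. Precision is limited by 3 arrays a group. For a feature not detected in the dimmer group, "at least" gives the fold of the brighter group's mean over the mean of, per array, the higher of the feature's value and the lowest detected signal. The rule named all features that are not variable, the 6 largest and 3 smallest WT changes at day 42 among variable features detected on all 3 WT CaCl2 arrays, the 4 highest uMT means and the 4 largest falls over conditions. The light chain features, gene lists and rules were chosen with earlier results of these data known. 1 gene that the rules named is not reported here.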

Additional observations from a re-analysis of the deposited data

Results flagged for a closer look

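The response to CaCl2 at day 42 differed between the genotypes, by the test of that difference in limma, for 2 light chain features. The log2 change in uMT minus that in WT was -7.81 for Iglv1 (adjusted p = 0.00278) and -5.71 for Igkv5-43 (adjusted p = 0.0437). Both were undetected on every WT sham array and on every uMT CaCl2 array. The WT and uMT CaCl2 arrays lay on different slides, so slide and genotype cannot be told apart. In uMT the sham and CaCl2 arrays also lay on different slides, so slide and treatment cannot be told apart there either.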

How the results depend on the processing

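Counts of light chain features that passed changed with the settings. In the order of the report the main counts were, for WT CaCl2 against sham, 34 at day 42 and 2 at day 7; for the response difference at day 42, 2; for uMT against WT, 30 (CaCl2 day 42), 2 (CaCl2 day 7) and 11 (average); for WT day 42 against day 7, 19; and for WT sham day 7 against pre, 1. Quantile normalization and the authors' matrix each gave 15 for the response difference and 26 for the average. Quantile normalization moved the median WT change at day 42 of all features from -0.46 to -0.05 and that of the light chain features from 1.94 to 2.18. Normexp with quantile normalization gave 12 for the response difference, 1 for WT day 7, 1 (lower) for uMT day 42 and 0 for sham against pre. The percentile over features detected on all arrays gave 1 for the response difference, and the trend option of eBayes gave 2 for sham against pre. The filter of detection on all 3 arrays of a group gave 4 for WT day 7, 17 for the average, 4 for uMT against WT after CaCl2 at day 7 and 2 for sham against pre. The filter of 15 of 30 arrays, which keeps 13 of the 94 features, gave 6 for WT day 42 (3 of them variable), 0 for WT day 7 and the response difference, 4 for the average, 1 and 5 for uMT against WT after CaCl2 at days 7 and 42, 1 for WT day 42 against day 7 and 2 for sham against pre.

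With slide as a random block the counts were 0 for WT day 7, the response difference, the average and uMT against WT after CaCl2 at both days, 34 for WT day 42 against day 7, 2 for that interval in uMT and 2 for sham against pre. With that block and no dim array they were 53 for WT day 42 (48 variable), 9 for WT day 7, 2 for uMT day 7, 25 for the response difference, 53 for the average, 11 and 59 for uMT against WT after CaCl2 at days 7 and 42, 32 for WT day 42 against day 7 and 2 for that interval in uMT. The slide correlation was 0.757 with the dim array and -0.0916 without it. Only arrays with at least 50% of features detected gave 52 for WT day 42 (47 variable), 5 for WT day 7, 1 for uMT day 42, 7 for the response difference, 4 for uMT against WT after CaCl2 at day 7 and 1 for uMT day 42 against day 7. Fits of only the groups compared gave 0 for WT day 42 (0 variable and 0 constant), 9 for WT day 7, 0 for the response difference, 1 and 6 for uMT against WT after CaCl2, and 0 for WT day 42 against day 7. The causes were not tested.

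Replicate numbers were not treated as pairs. Samples of the same number in other groups correlated at a median of -0.011 over 126 pairs, from -0.454 to 0.479. Those of other numbers correlated at a median of 0.019 over 252 pairs, from -0.549 to 0.514. Whether a number marks samples that belong together cannot be told from these values. The replicate block gave 1 for the response difference and 1 for uMT against WT after CaCl2 at day 7, and moved no other count by over 1.5 times.

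Leaving out each array in turn gave ranges of 22 to 53 for WT day 42 (18 to 48 variable, 4 to 4 constant), 0 to 4 for WT day 7, 1 to 18 for the response difference, 8 to 37 for the average, 0 to 4 and 16 to 48 for uMT against WT after CaCl2 at days 7 and 42, 8 to 41 for WT day 42 against day 7, 0 to 2 for that interval in uMT and 0 to 2 for sham against pre. Leaving the dim array out of comparisons that do not use it, and both arrays out of the counts by gene list, distance and motif, was chosen after seeing the data.

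By the scanner software's less strict flag, features detected on all 3 arrays numbered 25 instead of 7 in WT pre, 32 instead of 10 in WT sham day 7, 25 instead of 4 in WT sham day 42, 52 instead of 24 in WT CaCl2 day 7, 14 instead of 5 in uMT pre, 31 instead of 10 in uMT sham day 7, 20 instead of 7 in uMT sham day 42, 19 instead of 6 in uMT CaCl2 day 7 and 20 instead of 8 in uMT CaCl2 day 42.

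Changes that did not pass turned sign in WT at day 42. Clone IMAGE:4013126, at -0.61, read 0.55 after quantile normalization, 0.02 after normexp, 0.58 in the authors' matrix, 0.12 and 0.21 with slide as a block, with and without the dim array, and 0.23 without that array and on arrays with at least 50% detected. Igkv8-16 read -0.14 without replicate 1 of sham, Igkv16-104 -0.07 without replicate 3 of sham and -0.26 without replicate 3 of CaCl2, and Igkv4-58 0.00 without replicate 3 of sham. Over the arrays left out in turn these 4 ranged from -1.32 to 0.23, -0.14 to 1.91, -0.26 to 1.61 and 0.00 to 2.28.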
